A study of Mus musculus with 6 samples.

Results

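The small leucine-rich proteoglycans (SLRPs) are a family of secreted matrix proteins, and 10 of its genes were followed here: Dcn, Bgn, Aspn, Fmod, Lum, Prelp, Kera, Omd, Ogn and Epyc. They were taken by name from a count table of 57010 genes, and all 10 were found in it. RNA of bone marrow monocytes of 1-year-old C57BL/6 mice (C57BL/6J in the study's methods) was sequenced in 6 libraries, 3 from the femur (femur-derived monocytes, named S13, S15, S18) and 3 from the mandible (mandibular-derived monocytes, named S16, S19, S23). No allele or treatment is named for either group, and both were enriched by negative selection, in which a magnetic column held back antibody-labelled marrow cells and the unbound cells were kept as monocytes. Such a fraction can hold any cell that the antibodies miss, and the sources used here do not give animal, sex or batch by library, nor do they say that the 3 libraries of a group came from separate mice, so that p-values measure the spread between these libraries, which may be technical.

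An SLRP consists of a short core protein built of leucine-rich repeats, to which chondroitin, dermatan or keratan sulfate chains can be attached. The cores lie along collagen fibrils, where they limit the thickness of the fibrils and set their spacing, and several of them bind growth factors of the transforming growth factor beta family or, as soluble fragments, Toll-like receptors. They are made mainly by connective tissue cells such as fibroblasts, osteoblasts and cells of the periodontal ligament. The spacing of cysteines at the start of the core divides the members into class I (Dcn, Bgn and Aspn), class II (Fmod, Lum, Prelp, Kera and Omd) and class III (Ogn and Epyc).

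The libraries held 15718782 to 25371474 counts on genes. Femur library S15 had a count in 71% of the genes in the table and the other 5 libraries in 30.7 to 41.2%. The 13 monocyte marker genes, which include Csf1r and Lyz2, had log2 fold changes of -0.64 to 0.87 between mandible and femur and a summed level of 9307 to 16400 counts per 1000000 (CPM) in the femur against 7808 to 14100 CPM in the mandible. Mandible library S23 was the only one with a high level of Xist, the RNA that coats an inactive X chromosome, at 1441 CPM against 0.553 CPM or less elsewhere. It had no count of the Y-linked gene Ddx3y, against 840 to 1581 counts in the other 5 libraries. The study's methods name mice of both sexes. With this pattern in a mandible library only, sex is partly confounded with site. The part of sex in the values of S23 given here was not tested.

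The sequences just ahead of the genes are shown first, because the members differed widely in their level in the femur. RefSeq windows of the 250 bases before the start, on GRCm38.p6, were found for 8 of the 10 members, in 9 windows, since Epyc has a window at each of 2 starts. Printed here, 5′ to 3′ with every CG dinucleotide in capitals, are those of the member with the highest level in the femur (Bgn, chrX:73483351-73483600, plus strand), of a member with a single femur count (Aspn, chr13:49544193-49544442, plus strand) and of the member that varied the most among those with counts in all 6 libraries (Ogn, chr13:49607765-49608014, plus strand):
Bgn: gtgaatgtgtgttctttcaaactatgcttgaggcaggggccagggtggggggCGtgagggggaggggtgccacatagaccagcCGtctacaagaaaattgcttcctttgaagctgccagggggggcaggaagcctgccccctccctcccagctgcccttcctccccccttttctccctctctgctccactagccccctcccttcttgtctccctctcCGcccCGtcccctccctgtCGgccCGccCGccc
Aspn: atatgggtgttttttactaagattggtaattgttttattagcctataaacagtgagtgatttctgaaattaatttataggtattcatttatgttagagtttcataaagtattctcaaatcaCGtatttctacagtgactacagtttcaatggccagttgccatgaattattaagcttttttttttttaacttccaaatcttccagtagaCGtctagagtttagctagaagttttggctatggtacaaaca
Ogn: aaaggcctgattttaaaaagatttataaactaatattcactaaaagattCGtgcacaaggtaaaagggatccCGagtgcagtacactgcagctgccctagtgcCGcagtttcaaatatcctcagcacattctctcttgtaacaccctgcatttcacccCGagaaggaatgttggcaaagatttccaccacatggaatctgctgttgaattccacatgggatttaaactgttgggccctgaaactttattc
The Bgn window was GC-rich, with 64.4% G and C and 7 CG dinucleotides, a number that 46.3% of all 32851 windows reached or passed. The Aspn window held 30.0% G and C and 2 CG dinucleotides, a number reached by 81.2% of windows, and the Ogn window 42.0% and 4 CG dinucleotides, reached by 62.2%. The median window had 52.4% G and C and 6 CG dinucleotides, and among the 9 windows of members only that of Bgn had more than 6. The letters TATAAA, the core of a TATA box, were present on either strand in the windows of Aspn and Ogn and in 12.4% of all windows, but at 178 to 229 bases before the start and not near it. The letters TGTGGT, a core bound by RUNX factors, were found on the minus strand of the Ogn window, 65 bases before the start, and in 14.0% of all windows. The letters CATTCC, a core bound by TEAD factors, were found in the Ogn window and in 1 Epyc window, and in 12.6% of all windows. TGANTCA, an AP-1 element, was in the window of 0 of the 8 members and in 6.75% of all windows, and the E-box letters CANNTG were in those of 5 members and in 66.2% of all. These motifs were chosen after the values were seen, and a match is only a description of the letters.

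Taken as a sum, the family was higher in the libraries from the mandible. The 10 members summed to 629 counts in S13, 613 in S15 and 628 in S18, and to 5139 in S16, 7413 in S19 and 6527 in S23. Their share of all counts was thus 0.00248 to 0.00313% in the femur against 0.025 to 0.0415% in the mandible. After scaling with trimmed means of M values (TMM), the sum was 30.2 ± 3.91 CPM in the femur against 327 ± 61.8 CPM in the mandible (mean ± SD, n = 3 each), a ratio of 10.8. Levels below are such TMM-scaled CPM unless said otherwise. Genes were tested with edgeR's quasi-likelihood test over all 18114 genes that passed a filter on low counts, with the femur as the baseline, and a gene was called where it differed by 2-fold or more with an adjusted p (Benjamini-Hochberg) below 0.05. Of the members, 9 passed the filter and 7 of the 9 were called higher in the mandible (8 without S15, 7 without S16, and 6 without S13, S18, S19 or S23). The number lower was 0, also at an unadjusted p under 0.05 and under every alternative tried, DESeq2 included. Over all tested genes 5.18% were called, 3.88% higher and 1.30% lower. The tested members had a median log2 fold change of 4.23, and all tested genes one of -0.04. In 9 of the 10 members every mandible library lay above every femur library, a pattern seen in 12.7% of all tested genes, and Epyc was the member without it. With 3 libraries a site, exact permutation (two-sided) cannot give a p below 0.1, which each of these 9 members reached. Because these were bulk libraries, fewer cells of a type and less RNA per cell cannot be told apart in any of these values.

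**Figure D1:**
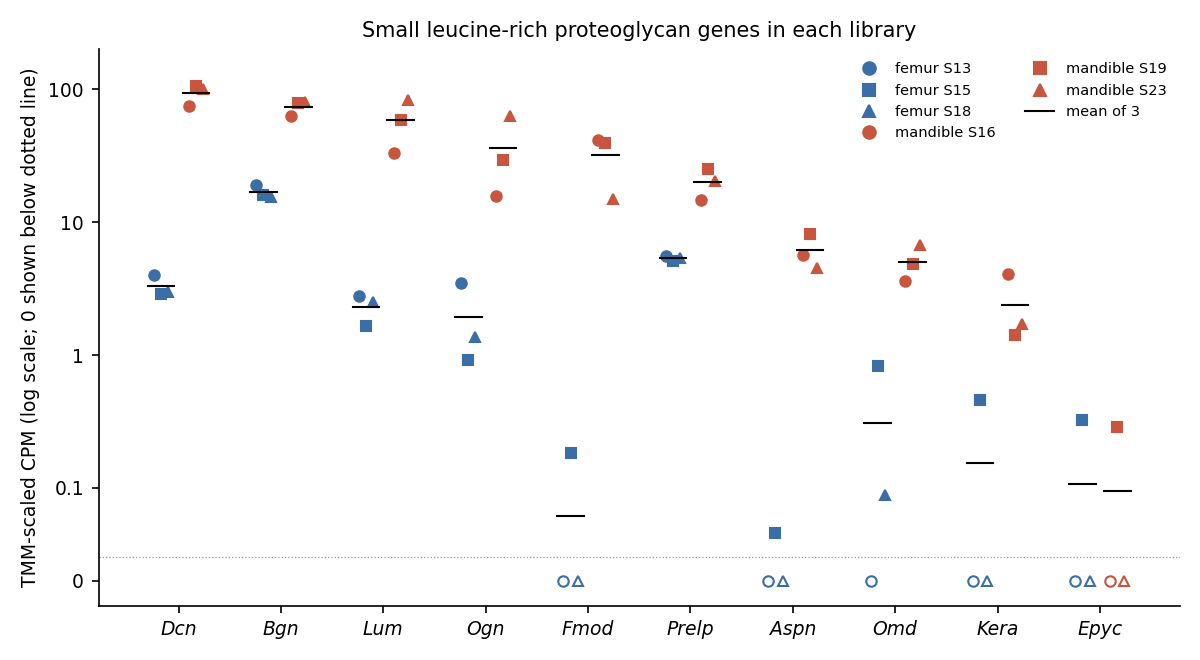
TMM-scaled CPM (log axis, with 0 drawn below the dotted line) of the 10 members in each of the 6 libraries, femur in blue and mandible in red, with a bar at each mean of 3 that is above 0.03. In every member except Epyc the 3 mandible libraries sit above the 3 femur libraries, and the femur points of Fmod, Aspn and Kera at values above 0 are all from S15.

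Decorin (Dcn, ENSMUSG00000019929, chr10:97479609-97518143, plus strand) is the class I member that coats collagen I fibrils and binds transforming growth factor beta. It was at 4.03, 2.86 and 3.0 CPM in S13, S15 and S18, and at 74.9, 105 and 99.8 CPM in S16, S19 and S23. The groups were far apart, and within each the highest library was 1.4 times the lowest. The log2 fold change was 4.82 ± 0.32 (SE), or 28.3-fold (edgeR, adjusted p = 1.35e-05).

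Biglycan (Bgn, ENSMUSG00000031375, chrX:73483602-73495933, plus strand), a class I proteoglycan of the bone matrix, stood out by its level in the femur. It had 343, 345 and 348 counts there, 16.7 ± 1.93 CPM (SD, n = 3), and 1266, 1672 and 1390 counts in the mandible, 74.1 ± 9.29 CPM (SD, n = 3). The spread between libraries was small at both sites, and the log2 fold change was 2.15 ± 0.26 (SE), or 4.43-fold (edgeR, adjusted p = 0.000705). Bgn lies on the X chromosome, and in S23, the library with Xist, it was at 79.5 CPM, beside 63.4 CPM in S16 and 79.4 CPM in S19.

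Asporin (Aspn, ENSMUSG00000021388, chr13:49544443-49567565, plus strand), the class I member known from periodontal ligament and cartilage, where it restrains mineralization, was almost without counts in the femur. It had 0, 1 and 0 counts in S13, S15 and S18 and 114, 172 and 79 counts in S16, S19 and S23, or 6.13 ± 1.86 CPM in the mandible (SD, n = 3). The fitted log2 fold change of 8.12 ± 1.26 (SE; edgeR, adjusted p = 0.00336) depended on the prior count, and was 5.76 with a prior count of 2 and 9.91 without S15. Pooled over libraries, the ratio of mandible to femur counts per total was 419, with an exact 95% interval of 74.8 to 16600 that covers counting error only.

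Fibromodulin (Fmod, ENSMUSG00000041559, chr1:134037254-134048277, plus strand), a class II keratan sulfate proteoglycan of tendon and ligament that binds lysyl oxidase, had the same form. It had 0, 4 and 0 counts in the femur and 836, 832 and 260 in the mandible, which is 41.8, 39.5 and 14.9 CPM. S23 was the lowest mandible library, and the highest was 2.81 times as high. The fitted log2 fold change was 8.84 ± 0.90 (SE; edgeR, adjusted p = 0.000258), 7.63 with a prior count of 2 and 12.29 without S15, which leaves no femur count. The pooled ratio was 554, with an exact 95% interval of 216 to 2030.

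Lumican (Lum, ENSMUSG00000036446, chr10:97565128-97572703, plus strand), the class II member best known for ordering fibrils in the cornea, was detected in all 6 libraries. It was at 2.76, 1.66 and 2.52 CPM in the femur and at 33.4, 58.9 and 83.1 CPM in the mandible. The order within the mandible was the reverse of that of Fmod, with S23 the highest and 2.49 times S16. The log2 fold change was 4.66 ± 0.43 (SE), or 25.2-fold (edgeR, adjusted p = 0.000129).

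Prelp (ENSMUSG00000041577, chr1:133910304-133921414, minus strand), a class II member with an arginine- and proline-rich start that binds heparan sulfate and anchors basement membranes to connective tissue, was the least certain of the 7 called members. It was at 5.52, 5.07 and 5.39 CPM in the femur and at 14.6, 25 and 20.3 CPM in the mandible. The femur libraries lay within 1.09-fold of each other and all mandible libraries were above them. The log2 fold change was 1.90 ± 0.40 (SE), or 3.74-fold (edgeR, adjusted p = 0.0171). The call was lost without S13 (adjusted p = 0.0696), S18 (0.0756), S19 (0.136) or S23 (0.0576), with log2 fold changes of 1.66 to 1.94.

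Keratocan (Kera, ENSMUSG00000019932, chr10:97606879-97613692, plus strand), the keratan sulfate proteoglycan of the cornea, had 0, 10 and 0 counts in the femur and 81, 30 and 30 in the mandible, where its level was 2.40 ± 1.44 CPM (SD, n = 3). It was not called, with a log2 fold change of 3.90 ± 1.79 (SE; edgeR, adjusted p = 0.309), or 8.56 without S15 (adjusted p = 0.0596), an estimate that depends on the prior count since no femur count is then left. Osteomodulin (Omd, ENSMUSG00000048368, chr13:49582462-49592822, plus strand), the SLRP of osteoblasts and odontoblasts that binds bone mineral, had 0, 18 and 2 counts in the femur and 72, 102 and 117 in the mandible, or 5.05 ± 1.56 CPM (SD, n = 3). It also missed the threshold, with a log2 fold change of 4.0 ± 1.33 (SE; edgeR, adjusted p = 0.13), and was called with DESeq2, with edgeR's exact test, with every gene with a count kept, and without S15 (log2 fold change 6.53, adjusted p = 0.0182). All 10 femur counts of Kera and 18 of the 20 of Omd came from S15, the library with counts in the most genes. Whether the 2 facts are linked was not tested.

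Osteoglycin (Ogn, ENSMUSG00000021390, chr13:49608046-49624501, plus strand), a class III member found in bone and other connective tissue, varied the most of the 5 members with counts in all libraries. It was at 3.48, 0.922 and 1.37 CPM in the femur and at 15.8, 29.3 and 62.9 CPM in the mandible. The highest femur library was 3.78 times the lowest, and the highest mandible library, S23, was 3.98 times the lowest, yet the groups did not overlap. The log2 fold change was 4.23 ± 0.65 (SE), or 18.8-fold (edgeR, adjusted p = 0.00303), and it was 3.50 without S23 and 4.96 without S13. Epiphycan (Epyc, ENSMUSG00000019936, chr10:97644068-97682454, plus strand), the class III member of growth plate cartilage, had 0, 7 and 0 counts in the femur and 0, 6 and 0 in the mandible. It did not pass the filter on low counts and was not tested, and the 3 counts that a count of 0 allows are 0.133 to 0.172 CPM in the libraries without a count.

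**Figure D2:**
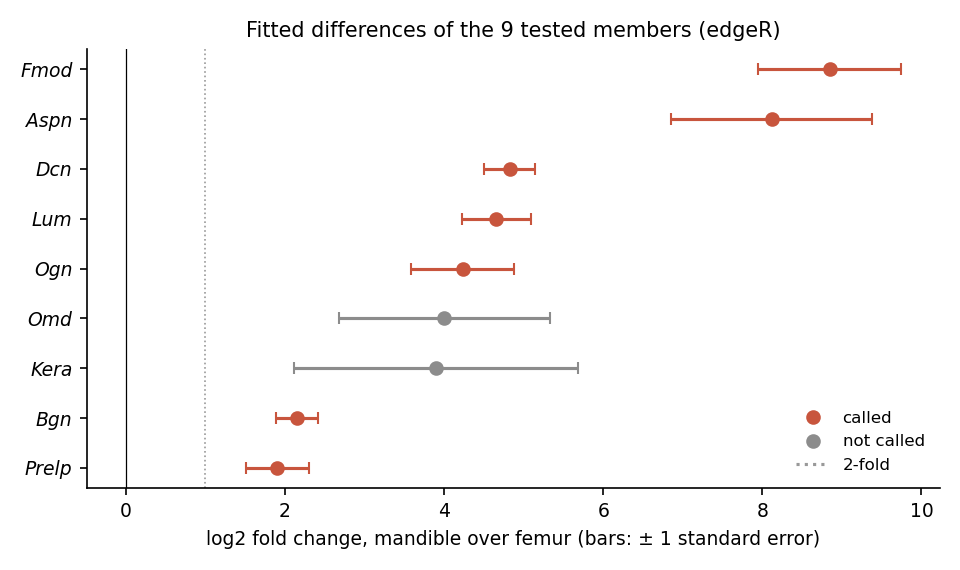
Log2 fold change, mandible over femur, of the 9 tested members with bars of 1 standard error, red where the gene was called and grey where it was not, and a dotted line at 2-fold. The estimates run from 1.90 (Prelp) to 8.84 (Fmod), and Kera and Omd have the widest bars.

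To see whether the family was only larger in the mandible or also differently made up, each member's level per kilobase of exons was divided by the sum over the 10 members in the same library, which does not depend on library scaling. In the femur Bgn alone was 39.8 to 41.3% of the family and Prelp 19.6 to 24.3%. In the mandible Bgn was 12.5 to 15.9% and Prelp 5.37 to 7.55%, so that these members took a smaller share there although both rose. Lum went the other way, with 10.7 to 16.8% of the family in the femur but 20.8 to 32.5% in the mandible. Dcn did so too, with 7.76 to 8.84% against 16.4 to 19.6%. Fmod took 0, 0.884 and 0% in S13, S15 and S18 and 19.3, 13 and 4.31% in S16, S19 and S23, and Aspn took 0.31% or less in femur libraries against 1.84 to 3.78% in mandible ones. For these 6 members the shares did not overlap between sites (exact two-sided permutation p = 0.1, the smallest possible, and 0.1667 after Benjamini-Hochberg adjustment over the 10 members). The shares of Ogn (10.6 ± 6.06% in the femur and 15.1 ± 7.41% in the mandible, SD, n = 3), Omd, Kera and Epyc overlapped, and the difference of 4.52 percentage points for Ogn became 0.338 without S23, 2.07 without S15, 7.37 without S16 and 7.91 without S13. The differences for Omd, Kera and Epyc were under 1 percentage point and changed sign when single libraries were left out.

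**Figure D3:**
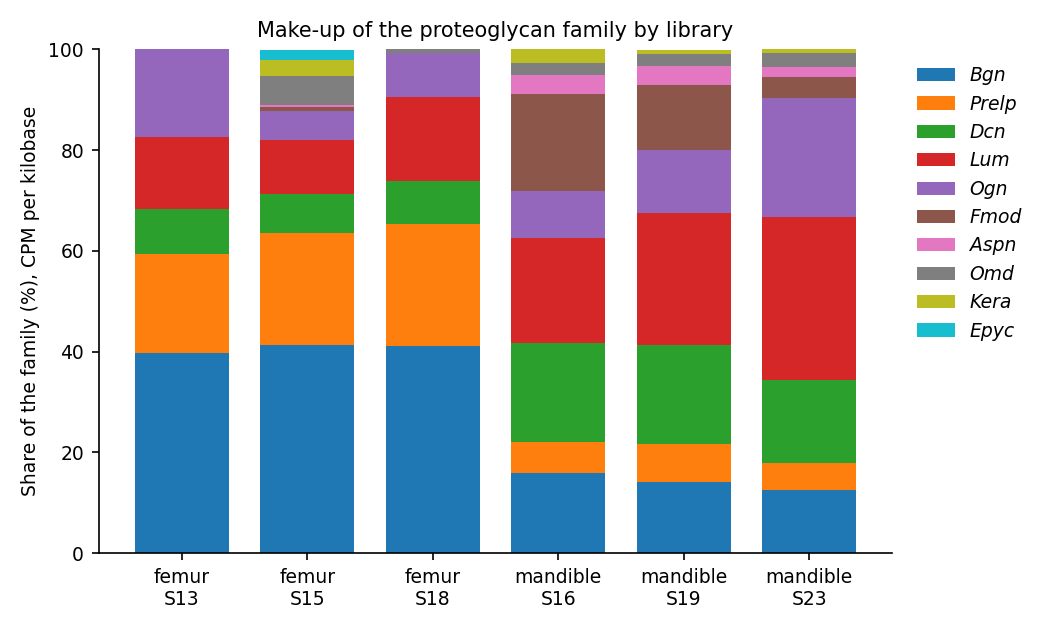
Share of each of the 10 members in the summed family level, in percent of CPM per kilobase of exons, as a stacked bar for each library. Bgn and Prelp fill 59.3 to 65.5% of the femur bars and 17.9 to 22.0% of the mandible bars, and the Fmod block shrinks from 19.3% in S16 to 4.31% in S23 while those of Lum and Ogn are highest in S23.

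The order of the members by level per kilobase differed in the same way. In the femur Bgn came first at 2.74 ± 0.316 CPM per kilobase, then Prelp at 1.47 ± 0.0648 (SD, n = 3), and neither range overlapped that of the next member. Lum (0.945), Ogn (0.750) and Dcn (0.565) followed with overlapping ranges, and the other 5 members were at 0.136 CPM per kilobase or less on average. In the mandible Lum led at 23.9 ± 10.2 CPM per kilobase, followed by Dcn at 16 ± 2.77, Ogn at 14.0 ± 9.44, Bgn at 12.2 ± 1.52, Fmod at 9.70 ± 4.52 and Prelp at 5.52 ± 1.45 (SD, n = 3). Lum was the highest member in each of the 3 mandible libraries, although its range overlapped that of Dcn. The ranges of neighbours in that order overlapped down to Prelp, but those of Lum, Dcn and Bgn lay wholly above that of Prelp. Prelp was above Aspn (2.60) in all 3 libraries without overlap, Aspn, Omd (2.24) and Kera (1.05) overlapped in turn, and Epyc was last at 0.0371 CPM per kilobase.

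The members were then set beside the collagens that they bind, by the log2 ratio of their counts within a library, which also does not depend on scaling. This was read for the 5 members with counts in every library, with 0.5 added to each count. Relative to the sum of Col1a1 and Col1a2, the genes of the chains of collagen I, Bgn had a mean log2 ratio of -2.32 ± 0.32 in the femur and -6.90 ± 0.19 in the mandible (SD, n = 3), a difference of -4.59. The differences were -4.86 for Prelp, -2.52 for Ogn, -2.15 for Lum and -1.91 for Dcn, each without overlap between sites (exact permutation p = 0.1). All 5 thus stood lower against collagen I in the mandible, where the sum of Col1a1 and Col1a2 was 142843 to 193419 counts against 1478 to 2214 in the femur. With such a rise, a gene without a difference between sites would also stand lower, and likewise against Col3a1 (log2 fold change 8.49). The share of all genes that did so was not counted, so the sign is not read as a trait of these members. The lower ratio does not hold for the whole family. Among the members with femur libraries at 0, where the added 0.5 sets the ratio, the difference was 2.45 for Fmod and 0.70 for Aspn. It was -1.70 for Kera, -1.57 for Omd and -6.71 for Epyc, and only for Epyc did the sites not overlap. Relative to Col3a1, of collagen III, the differences were -6.51 (Prelp) to -3.56 (Dcn). Relative to Pdgfra and Pdgfrb, growth factor receptors of mesenchymal cells, the members parted. Dcn was higher in the mandible by 2.12 on the log2 scale, Lum by 1.89 and Ogn by 1.52. Bgn was at -0.55 and Prelp at -0.82, and all 5 were again without overlap between sites (exact permutation p = 0.1). The receptors rose unequally, with log2 fold changes of 3.72 for Pdgfra and 1.83 for Pdgfrb. Those of Bgn (2.15) and Prelp (1.90) lay between these values, so their sign here depends on summing the receptors. Ratios to each receptor alone were not computed. For Ogn the sites nearly met, with a log2 ratio of -2.83 in S13 and -2.82 in S16. The adjusted p over the 10 members, by Benjamini-Hochberg over these permutation tests, was 0.1667, 0.125 and 0.1429 with the 3 partners in this order.

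**Figure D4:**
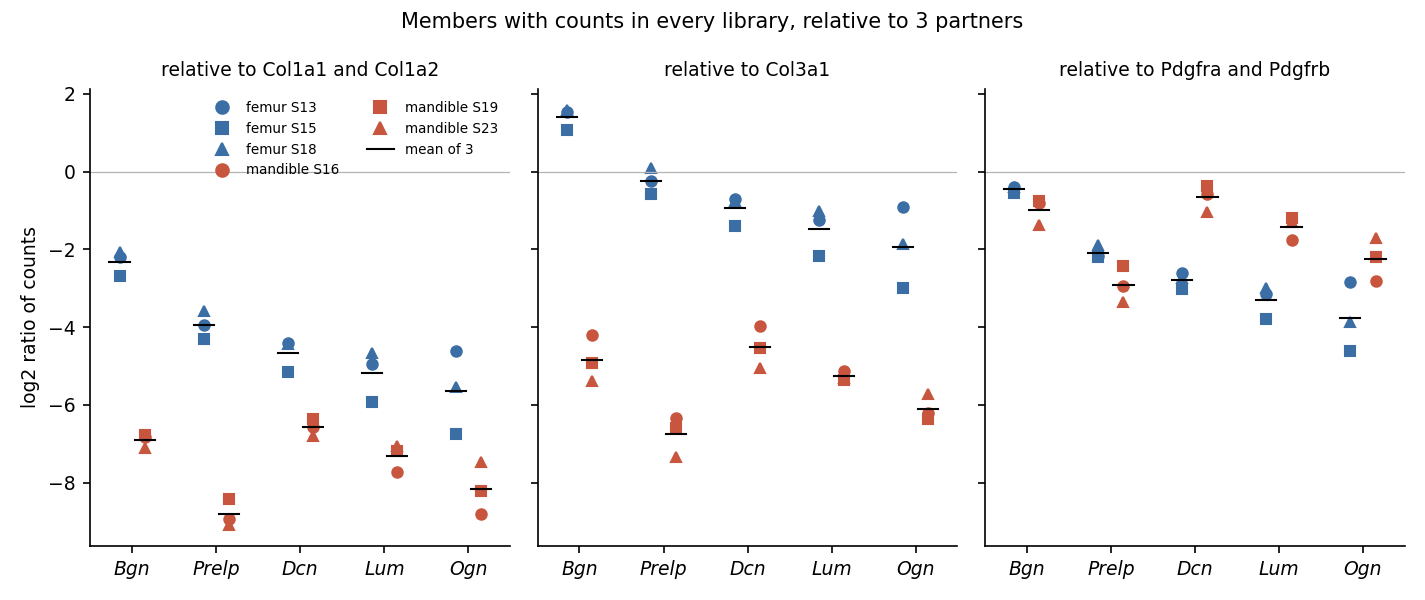
Log2 ratio of the counts of 5 members to those of Col1a1 and Col1a2, of Col3a1, and of Pdgfra and Pdgfrb in each library, femur in blue and mandible in red, with bars at the means of 3. The mandible points are below the femur points for all 5 members in the first and second panels, and in the third only for Bgn and Prelp.

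Members lie side by side in the genome. Dcn, Lum, Kera and Epyc follow each other on chromosome 10, with 46985, 34176 and 30376 bases between them, Aspn, Omd and Ogn on chromosome 13 with 14897 and 15224 bases between them, and Prelp and Fmod lie 115840 bases apart on chromosome 1, all on GRCm38. The tested protein-coding genes that flank these groups were not called, where 5.18% of all tested genes were. They were Btg1 (log2 fold change 0.35, edgeR adjusted p = 0.684) beside Dcn, Ecm2 (2.31, 0.343) and Nol8 (-0.18, 0.899) beside the group on chromosome 13, Btg2 (0.52, 0.366) beside Fmod, and Haus7 (-0.94, 0.322) and Atp2b3 (0.43, 0.96) on either side of Bgn. Ecm2 is itself in the list of other SLRPs and relatives read below. It had 3, 22 and 15 counts in the femur and 62, 54 and 63 in the mandible, without overlap. Ccer1, next to Epyc, had 33 counts in S15 and none elsewhere, and Optc, next to Prelp and itself an SLRP gene, had 18 counts in S15 and 14 in S19 only. Cenpp, on the opposite strand, spans Aspn, Omd and Ogn and shares 7 exonic bases with Aspn and 0 with Omd and Ogn. It was at -0.99 (edgeR, adjusted p = 0.356), with 213 to 391 femur counts against 87 to 189 mandible counts. The antisense gene Gm15851 shares 350 exonic bases with Prelp and had 0, 13 and 1 counts in the femur and 0, 21 and 0 in the mandible, and since no source used here says whether the strand was counted, its reads and those of Prelp on these bases cannot be told apart.

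The other genes of the SLRP system were read from lists, described by counts and medians beside the 5.18% called and the median of -0.04 over all tested genes. Of 8 other SLRPs and relatives, 5 were tested and 1 was called, Tsku (tsukushi, an inhibitor of bone morphogenetic proteins). Tsku had no count in the femur and 104, 143 and 135 in the mandible, and was at least 45.1-fold higher there against a floor of 3 counts per library. Podnl1 (2.26, edgeR adjusted p = 0.229) and Podn (0.99, 0.676) were the most abundant of the others and were not called. The enzymes that build and sulfate the glycosaminoglycan chains had a median log2 fold change of 0.01, with 3 of 31 called, all higher. The 3 were Chst1 (3.71 ± 0.53 SE, edgeR adjusted p = 0.00192), which sulfates keratan, Ust (3.19 ± 0.65, 0.0147), which sulfates uronic acid in dermatan and chondroitin chains, and Chpf (2.47 ± 0.43, 0.00657), which helps to extend chondroitin chains. Xylt1, the enzyme that starts the chains on the core protein, was at 0.52 (edgeR, adjusted p = 0.317).

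Of the 14 fibrillar and fibril-associated collagens, 12 were called, all higher, with a median log2 fold change of 4.79. Col3a1 was at 8.49 ± 0.56, Col1a1 at 7.49 ± 0.52, Col5a2 at 6.86 ± 0.46 and Col1a2 at 5.91 ± 0.43 (SE; edgeR, adjusted p = 2.4e-05 or less). Among 25 partners in fibril assembly 12 were called, all higher, with a median of 2.97. They included Plod2 (5.53), which hydroxylates lysines for cross-links, Thbs2 (5.25), Fbln1 (4.99) and Serpinh1 (4.33), the collagen chaperone, whereas Fn1 (fibronectin, 1.00, edgeR adjusted p = 0.304) and Thbs1 (-0.18, 0.894) were not called. Of 9 tested proteases that cleave SLRP cores, 6 were called higher, with a median of 3.62, among them Mmp2 (6.38), Mmp14 (4.14) and Adamts5 (3.70), while the abundant neutrophil proteases Mmp8 (-0.01) and Mmp9 (0.10) were not. Of 21 tested ligands and receptors 4 were called higher, with a median of 0.41. Ccn4 (7.67), a secreted protein that binds decorin and biglycan, Tgfb3 (4.80) and Tgfb2 (4.71) were among them, and Tgfb1 (0.18, edgeR adjusted p = 0.837), Itgb1 (0.48, 0.508) and Lrp1 (1.61, 0.0601) were not.

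Most tested markers of connective tissue and tooth cells were higher in the mandible, as the members were, and their part in the members' values was not tested. Of 10 tested markers of mesenchymal stromal cells 6 were called higher, with a median log2 fold change of 3.97, and the summed level of all 11 was 210 to 321 CPM in the femur against 477 to 1030 CPM in the mandible. Sfrp2 (11.84), Mmp2 (6.38) and Postn (5.81) rose the most. Cxcl12, the most abundant of the list in the femur, was at -1.42 (edgeR, adjusted p = 0.084) and Lepr at -0.44 (0.7). Cxcl12 alone was 149 to 243 CPM of the sum in the femur and 34.7 to 121 CPM in the mandible. Of 11 osteoblast markers 9 were called higher, with a median of 3.33, and their sum was 103 to 143 CPM in the femur against 565 to 847 CPM in the mandible. Of 10 markers of odontoblasts and ameloblasts, the cells that make dentin and enamel, 9 were called higher, with a median of 9.38, or 8.04 with Odam, which had no femur count, at its lower bound. Their sum was 0.221 to 4.75 CPM in the femur against 5856 to 11440 CPM in the mandible, led by the enamel genes Amelx, Ambn and Enam. Of 5 tested markers of tendon and periodontal ligament 4 were called higher, with a median of 5.81, or 4.08 with Tnmd at its bound. Their sum was 17.4 to 33.8 CPM in the femur against 367 to 500 CPM in the mandible. Egr1 alone was 12.3 to 31.15 CPM of it in the femur and 171 to 178 CPM in the mandible. Tnmd was not called (edgeR, adjusted p = 0.0527), with no femur count and 64, 38 and 25 counts in the mandible. Scx was not tested, with 0, 3 and 6 counts in the femur and 0, 13 and 24 in the mandible. Of the 11 chondrocyte markers 6 were tested and 2 called higher, with a sum of 3.92 to 21.6 CPM in the femur against 44.3 to 124 CPM in the mandible, and Matn1, Matn3 and Ucma had no count in any mandible library. Mmp2, Postn, Bmp1, Col2a1, Mmp8, Mmp9, Cd14 and Kdr each stand in 2 of the lists described, so the counts of these lists share genes.

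Among the markers of other blood cells and of vessels 1 gene was called higher. Of 12 neutrophil markers 1 was called, S100a8, which was lower. The list had a median log2 fold change of -1.24, with 1 of the 12 above 0. Its sum was 33800 CPM in S13, 3937 in S15 and 24250 in S18, against 4169 to 10720 CPM in the mandible, so only S15 overlapped the mandible range or fell below it. Of 8 erythroid markers 4 were called lower, with a median log2 fold change of -2.53. Of 7 tested endothelial markers 2 were called lower, Esam (-5.90) and Vwf (-2.59), with a list median of -0.23. Pecam1 (-0.29), Cdh5 (-0.15), Kdr (-0.23), Tek (0.35) and Ramp2 (1.14) were not called. The endothelial sum was 179 to 257 CPM in the femur against 63.6 to 79.4 CPM in the mandible. Vwf alone was 122 to 192 CPM of it in the femur and 23.3 to 28.4 CPM in the mandible. Of 6 tested B cell markers 1 was called higher, Ebf1 (1.89 ± 0.49 SE, edgeR adjusted p = 0.0481), which is also used outside B cells, while Cd79a (-0.33) and Cd79b (-0.60) were not called.

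**Figure D5:**
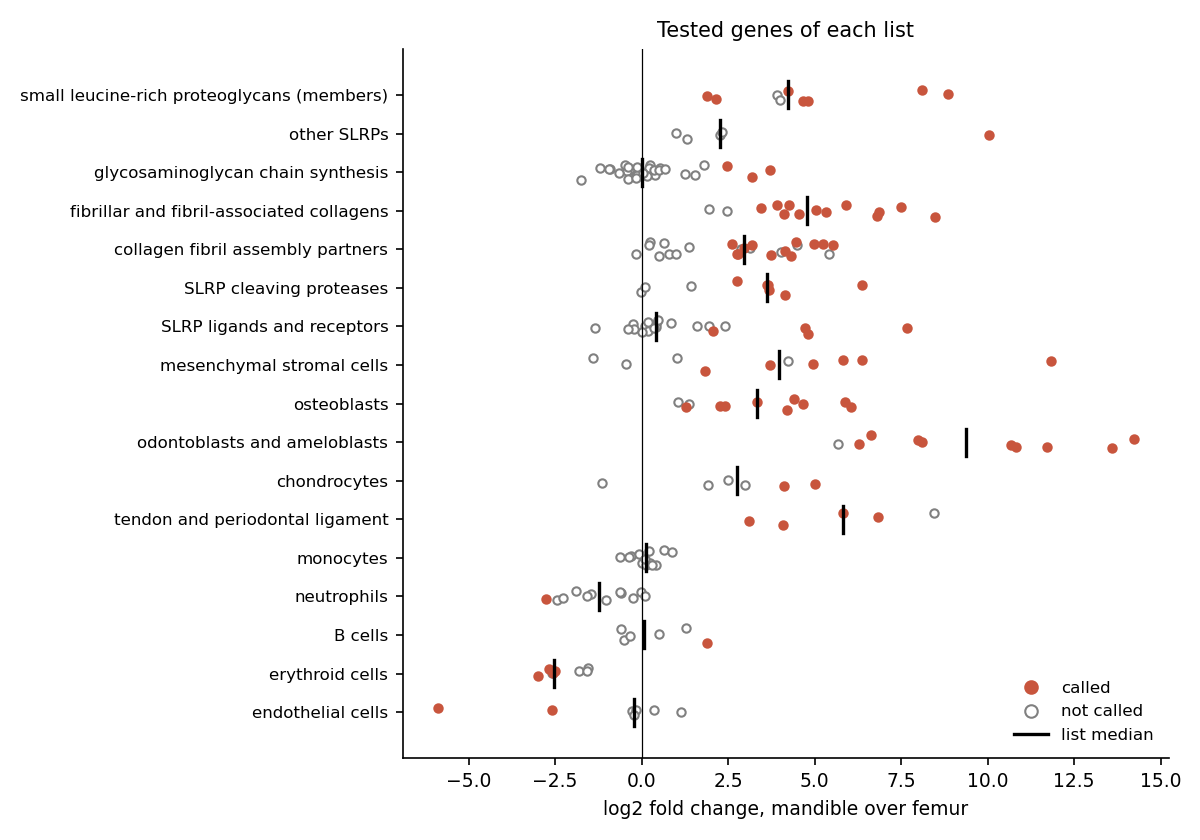
Log2 fold change, mandible over femur, of the tested genes in each list, filled red where called and open where not, with a black line at the list median. Estimates of genes with 0 femur counts (Tsku, Odam and Tnmd) depend on the prior count. The medians run from 9.38 for odontoblasts and ameloblasts to -2.53 for erythroid cells, with 4.23 for the SLRP members and 0.11 for monocytes.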

How the data were processed

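Marrow monocytes of the femur and the mandible were sequenced in 6 libraries, 3 per site. Per the methods and the submitters' processing notes, the authors trimmed paired-end reads, aligned them to GRCm38 with HISAT2 2.1.0 and used featureCounts per gene, and the deposited values are raw read counts, not normalized. The version of featureCounts and its use of strand and of reads with several positions are not given in the sources used here. Of 52029 genes found both in the table and in GENCODE M21 (GRCm38), 2979 had table coordinates inside the M21 gene, and 0 of the 10 members did. Most table coordinates thus did not match GRCm38, although the methods name that build, and the reason was not tested. Coordinates and shared exonic bases given are those of M21, matched by Ensembl identifier, which may not be the annotation that was counted.

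Library totals were 15718782 to 25371474 counts, at which the 3 counts that a count of 0 allows are 0.118 to 0.191 CPM before TMM scaling. Such floors and the intervals of pooled ratios cover counting error only. Counts were fitted in R 4.3.3 with edgeR 4.0.16 (filterByExpr, minimum count 10 and minimum total 15; TMM; quasi-likelihood test; prior count 0.125; no covariate). Single values were compared by exact two-sided permutation tests in scipy 1.17.1. The alternatives were DESeq2 1.42.0, limma-voom (limma 3.58.1), edgeR's exact test, other scalings, filters, thresholds and prior count, a length correction by loess (span 0.4), other partners and lengths for ratios and shares, and each library left out in turn.

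The members and gene lists were chosen with earlier results of these data known. Every member is named, and from each other list at most 3 genes by highest mean CPM and at most 3 called genes by largest log2 fold change. Some of them are given only within list counts, and Ecm2 and Optc are named as neighbours. A few other genes are named as examples or as limits of a list count.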

Additional observations from a re-analysis of the deposited data

How the results depend on the processing

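The call in the mandible of Dcn, Bgn, Aspn, Fmod, Lum and Ogn, all higher, was kept under each alternative that tested them and without each library. Members called numbered 5 to 8, with 5 where at least 10 counts in every library were required, which left 5 of them to test. Prelp was also not called at an adjusted p under 0.01, and Kera was not called under any alternative. The number of genes called, 938, became 1548 with DESeq2, 1468 with edgeR's exact test, 1590 with every gene with a count, 445 at an adjusted p under 0.01, and 434 (without S19) to 1565 (without S15) with a library left out (509 without S13, 552 without S18 and 551 without S23). The cause was not tested. The length correction moved the median log2 fold change of all genes from -0.04 to -0.17, and keeping every gene with a count, which adds genes with few counts, moved it to -1.09. Bgn was at 1.73 or above under every alternative. With a library left out, the difference in the share of the family, in percentage points, ranged from -0.367 to 1.37 for Kera, from -0.696 to 2.23 for Omd and from -0.958 to 0.0404 for Epyc. With Pdgfra and Pdgfrb in place of collagen I, the log2 ratio of mandible to femur changed sign, to 2.12 for Dcn, 1.89 for Lum, 2.34 for Kera, 2.47 for Omd and 1.52 for Ogn, and with Col3a1 to -0.95 for Aspn. Those of Kera, Omd and Aspn rest on femur counts at or near 0, to which 0.5 was added, and overlapped between sites, so their sign is not determined. In counts in place of counts per kilobase, the difference in share was 17.7 for Dcn and 1.86 for Aspn, beside 10.2 and 3.0. No paired analysis was possible because the groups share no replicate number. With 3 libraries a site, members with few femur counts could not be placed more closely than their intervals.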
